A study of Mus musculus with 17 samples.

Results

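Ccl3, Ccl4, Ccl6 and Ccl9 encode the macrophage inflammatory proteins and their close relatives, small secreted chemokines of the C-C class. Each gene was read by 1 probe set of the array whose annotation gives it a single symbol: 102424_at for Ccl3, 94146_at for Ccl4, 92849_at for Ccl6 and 104388_at for Ccl9. These are 4 of the 12488 probe sets in the table, and all 4 were among the 9871 that passed the filter on dim values (2 or more arrays with a value past the 40th percentile of that array). The genes were chosen by family name with their measured intensities in all 6 groups of the same 17 arrays known, among them the higher Ccl4 in SOCS3-deficient cells. The values below are therefore a description. Levels are linear array intensities after quantile normalization, changes are on the log2 scale from a limma model of all 6 groups, and a probe set was called at a Benjamini-Hochberg adjusted p under 0.05 over the 9871. The limma p-values say where a probe set stood among all those tested and are no separate support.

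Chemokines bind receptors on leukocytes and draw them along a gradient. Ccl3 and Ccl4, also called MIP-1alpha and MIP-1beta, are made by activated macrophages and lymphocytes, Ccl3 is a ligand of the receptor Ccr1, and NF-kappaB is a known activator of both genes in macrophages. Ccl6 and Ccl9 are rodent chemokines that act through Ccr1, and myeloid cells make both of them without an added inflammatory stimulus. SOCS3 is a feedback inhibitor that binds the receptor subunit gp130 and limits the signal of IL-6 through STAT3.

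Bone marrow-derived macrophages were studied from mice that had been irradiated and given fetal liver cells of SOCS3+/+ embryos (WT) or SOCS3-/- embryos (KO). The macrophages came from donor-derived marrow cells of these mice and were left unstimulated or were given 10 ng/ml IL-6 for 100 or 400 min, and total RNA was put on arrays. The groups were WT unstimulated (n = 2) and WT 100 min, WT 400 min, KO unstimulated, KO 100 min and KO 400 min (n = 3 each). Replicates are numbered in the labels without a word on separate mice, donors or cultures, nor on strain, age or pooled animals, so the p-values reflect nothing beyond how these arrays vary, and part of that may be technical. The comparisons ask how the loss of SOCS3 alters the response of these genes to IL-6.

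The median deposited intensity of an array was between 164.25 and 216.95. Of 11 macrophage markers 10 passed the filter, as did 9871 of all 12488 probe sets. A similar share passed of neutrophil (9 of 11), B cell (5 of 5), erythroid (3 of 3) and stroma markers (5 of 6). Fewer passed of T and NK cell (2 of 6) and mast cell markers (3 of 6). The count alone therefore does not bear out the labelled cell type. The levels speak for it in part, with Cd68 between 9150 and 14000 and Csf1r between 13400 and 33000 over all arrays. By median, Lyz2 (28500), Csf1r (21900), Cd14 (18400), Mpeg1 (14800), Cd68 (12200), Fcgr1 (5860) and Adgre1 (5360) exceeded every marker of the other lists. The brightest of those was the B cell marker Ighm (1980), and the macrophage markers Mrc1 (1300), Msr1 (1300), Itgam (1090) and Marco (25.8) lay below it. The scavenger receptor Marco was dim. Socs3 checked the labels: on the probe set 92232_at it was at 432 to 2550 on the WT 100 min arrays, 2040 to 2400 on the WT 400 min arrays and 66.8 to 179 on the KO 100 min arrays. On the array labelled KO 400 min replicate 3 it reached 903, against 48.6 on the lowest KO array at that time, so the log2 changes of KO cells at 400 min are also given without that array. Unstimulated, 92232_at was at 54.9 to 115 in WT and 16.5 to 23.6 in KO cells. On the other Socs3 probe set, 162206_f_at, WT 100 min arrays were at 483 to 1290 and KO 100 min arrays at 121 to 333. The 483 and the 333 were both on replicate 3, and KO 400 min replicate 3 was at 793. In KO against WT cells neither probe set was called by limma, at 100 min (adjusted p = 0.368 and 0.648) or 400 min (0.102 and 0.252). Arrays of replicate 3 lay apart on the first principal component (12.7% of the variance), between 26.6 and 58.1 for 4 of them and at 0.9 for KO 400 min replicate 3, against at most 2.3 for the other 12 arrays. Unstimulated WT cells have no replicate 3. The genotypes also differed in sex-linked genes: Eif2s3y lay between 245 and 790 on WT arrays and between 7.67 and 112 on KO arrays, and Xist between 11.1 and 188 against 228 and 993. Sex of the donor cells and genotype therefore cannot be told apart in any KO against WT comparison below.

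The 4 genes lie next to each other on mouse chromosome 11 in RefSeq's GRCm38.p6 annotation, in the order Ccl9, Ccl6, Ccl3 and Ccl4 among protein-coding genes, with Ccl5 beside Ccl9. RefSeq promoter windows were held for 3 of the 4, Ccl3, Ccl6 and Ccl9. Each window holds the 250 bases before the annotated start, 5′ to 3′ along the gene's strand. None of these 3 genes was called in any comparison below, and Ccl4, which was, had no window. Capitals mark matches to any of 5 motifs searched on both strands: a STAT site (TTCNNNGAA), AP-1 (TGANTCA), C/EBP (TTGCNNAA), a TATA box (TATAAA) and the NF-kappaB consensus. The windows lie on the minus strand at chr11:83649379-83649628 (Ccl3), chr11:83593088-83593337 (Ccl6) and chr11:83578637-83578886 (Ccl9) of GRCm38.p6.
Ccl3: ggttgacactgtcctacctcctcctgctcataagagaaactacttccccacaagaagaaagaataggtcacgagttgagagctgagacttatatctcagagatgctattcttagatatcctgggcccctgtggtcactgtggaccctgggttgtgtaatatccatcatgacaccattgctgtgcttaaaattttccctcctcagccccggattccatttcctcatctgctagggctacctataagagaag
Ccl6: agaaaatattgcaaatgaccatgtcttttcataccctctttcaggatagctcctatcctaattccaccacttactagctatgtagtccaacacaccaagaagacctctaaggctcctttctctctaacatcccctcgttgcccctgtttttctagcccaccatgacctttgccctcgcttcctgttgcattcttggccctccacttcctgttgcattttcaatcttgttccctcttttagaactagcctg
Ccl9: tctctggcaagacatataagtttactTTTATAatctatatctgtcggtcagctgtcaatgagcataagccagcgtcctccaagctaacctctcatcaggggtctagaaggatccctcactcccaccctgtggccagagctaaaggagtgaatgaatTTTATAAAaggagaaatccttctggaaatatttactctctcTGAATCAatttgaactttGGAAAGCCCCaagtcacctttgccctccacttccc

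Only the Ccl9 window held any of these letters. It had the AP-1 letters 53 bases before the start, an NF-kappaB match on the opposite strand 35 bases before it, and TATA letters at 224, 94 and 92 bases, the last 2 of which overlap. Over the 32851 RefSeq windows of the same length, 6.75% held the AP-1 letters, 3.9% the NF-kappaB consensus, 12.4% the TATA letters, 7.02% the STAT letters and 9.56% the C/EBP letters. The windows of Ccl6 and Ccl9 shared an unbroken run of 13 bases, gccctccacttcc, 55 and 14 bases before their starts. The longest run that Ccl3 shared with either was 8 bases. A match is a description of letters and not a measured site.

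Of the 4 genes, Ccl4 rose after IL-6 in KO macrophages and was higher there than in WT macrophages at both times. Ccl3 had higher values in stimulated KO cells that did not pass the test over all probe sets, and Ccl6 and Ccl9 passed it in no comparison. In KO against unstimulated KO cells, 1 of the 4 was called higher and 0 lower at 100 min, where 0.537% of all tested probe sets were higher and 0.0405% lower. At 400 min 1 of 4 was higher and 0 lower, beside 1.2% and 0.628%. In KO against WT cells 1 of 4 was higher and 0 lower at 100 min, beside 0.0304% and 0.0101% of all, and 1 of 4 was higher and 0 lower at 400 min, beside 0.314% and 0.0507%. Ccl3 and Ccl4 had every KO array above every array of the other group in these 4 comparisons, as did 5.69% (KO at 100 min), 8.56% (KO at 400 min), 4.19% (KO against WT, 100 min) and 7.21% (KO against WT, 400 min) of all tested probe sets. Since the genes were chosen with these contrasts known, nothing is read from the counts. In bulk RNA, fewer cells of a type and less RNA per cell cannot be told apart.

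**Figure D1:**
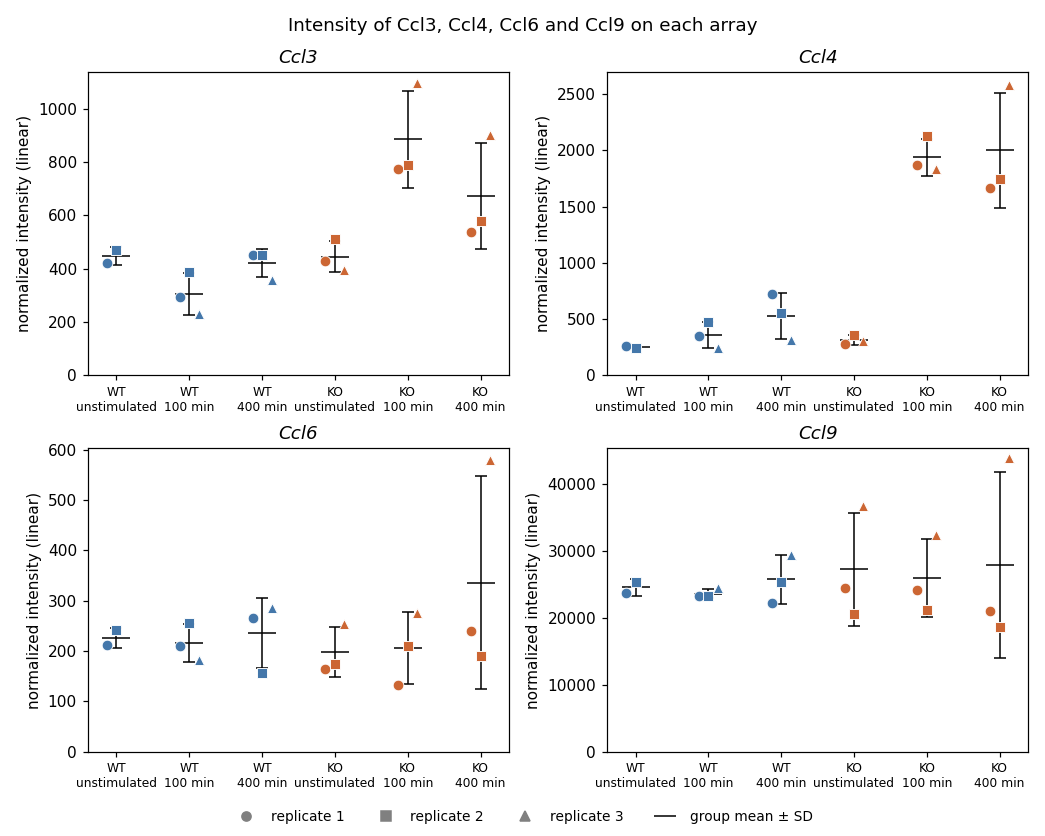
Normalized linear intensity of each gene (vertical axis, its own scale per panel, starting at 0) on the 17 arrays, by group; symbols are replicates 1 to 3, and the dash and bar are the group mean ± SD. Ccl4 on the 6 stimulated KO arrays lay between 1666 and 2583, above every other array, and Ccl9 was highest on the replicate 3 array in each group that has one.

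Ccl4, a chemoattractant of monocytes and T cells, read 257 and 244 on the unstimulated WT arrays. It read 349, 476 and 244 for WT replicates 1 to 3 at 100 min, and 718, 554 and 309 at 400 min. Ccl4 in KO cells read 280, 358 and 300 unstimulated, 1868, 2130 and 1832 at 100 min, and 1666, 1745 and 2583 at 400 min. The 6 stimulated KO arrays were all above every other array, and the unstimulated KO arrays overlapped the stimulated WT arrays. By group mean the order was WT unstimulated at 250 ± 9.63 (SD, n = 2), KO unstimulated at 313 ± 41.0 (SD, n = 3), WT 100 min at 356 ± 116 (SD, n = 3), WT 400 min at 527 ± 206 (SD, n = 3), KO 100 min at 1943 ± 163 (SD, n = 3) and KO 400 min at 1998 ± 508 (SD, n = 3). Of the neighbours in this order, WT 400 min and KO 100 min were separated beyond their spread, and so were both unstimulated groups, by a small margin: every unstimulated KO array was above both WT ones, as in 11.8% of all tested probe sets.

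In KO cells Ccl4 rose 6.24-fold at 100 min, a log2 change of 2.64 (SE 0.32, limma adjusted p = 0.00193), and 6.3-fold at 400 min (2.66, SE 0.32, limma adjusted p = 0.00109). Between 100 and 400 min the KO mean differed by 0.01 on the log2 scale (95% interval -0.67 to 0.7), and by -0.19 without the array labelled KO 400 min replicate 3. Within replicates 1, 2 and 3 the log2 change of Ccl4 in KO cells at 100 min was 2.74, 2.57 and 2.61, and at 400 min 2.57, 2.28 and 3.11, so it was seen in 3 of 3 replicates. Without the array labelled KO 400 min replicate 3, the change at 400 min was 2.46 (limma adjusted p = 0.00431). When limma was fitted on only the groups compared, the KO 100 min call was lost at the same size (adjusted p = 0.0687), and the KO 400 min call was kept (adjusted p = 0.019).

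In WT cells the log2 change of Ccl4 was 0.46 at 100 min (95% interval -0.31 to 1.23, limma adjusted p = 0.911) and 0.99 at 400 min (0.22 to 1.76, adjusted p = 0.653). All 3 WT arrays at 400 min were above both unstimulated ones, as were those of 10.8% of all tested probe sets. Replicate 3 was the lowest WT array at both times, and within replicates 1 and 2 the change at 400 min was 1.48 and 1.19. None of the 4 genes was called in WT cells at either time by limma, where 0.0101% of all probe sets were, and at an unadjusted p under 0.05 the number was 0 of 4 at 100 min (6.12% of all) and 1 of 4 at 400 min (6.26% of all), Ccl4. A summed intensity of B cell markers also moved between these groups. For the 5 markers with a probe set, which all passed the filter, it was 5981 to 6699 in unstimulated WT cells. It was 1459 to 4601 at 100 min and 2186 to 4014 at 400 min. No B cell marker was at 0 on any array. Ighm led the sum, at 615 to 5860 over all arrays, where no other B cell marker exceeded 446. The summed 11 macrophage markers, 10 of which passed the filter, were at 101477 to 111209 in WT cells at 400 min against 117041 to 128344 unstimulated. The 3 erythroid and megakaryocyte markers with a probe set summed to 390 to 475 at 100 min against 539 to 825 unstimulated. Marker sums not given here overlapped those of unstimulated WT cells. Of single probe sets tested, 11.3% had every WT array below the unstimulated ones at 100 min, and 11.2% at 400 min. The part of the marker sums in the WT values was not tested.

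Between the genotypes Ccl4 was 5.64-fold higher in KO than in WT cells at 100 min (2.50 on the log2 scale, SE 0.32, limma adjusted p = 0.0109) and 3.94-fold higher at 400 min (1.98, SE 0.32, limma adjusted p = 0.0181), above WT on 3 of 3 arrays at each time. Unstimulated, the difference of Ccl4 was 0.31 (95% interval -0.46 to 1.08). For arrays of the same number the KO over WT ratio at 100 min was 5.36, 4.47 and 7.51, and at 400 min 2.32, 3.15 and 8.35. The 400 min ratio was thus largest for the replicate 3 pair. Against the mean of replicates 1 and 2 of its group, the KO array of that pair was at 0.6 on the log2 scale and the WT array at -1.03. The 400 min difference was 1.78 without the array labelled KO 400 min replicate 3 (limma adjusted p = 0.0421) and 1.63 without WT 400 min replicate 3. With replicates 1 and 2 alone it was 1.43 (adjusted p = 0.0387). The limma calls were lost in fits of only the groups compared (adjusted p = 0.264 at 100 min and 0.24 at 400 min). At 100 min the call was also lost when the first WT replicate of that time was left out (adjusted p = 0.0542), or KO replicate 1 (0.0606) or 2 (0.0702). At 400 min it was lost when WT replicate 2 (0.0551) or 3 (0.0635) of that time was left out, or KO replicate 2 (0.0614).

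Set against each other, the responses of Ccl4 in KO and in WT cells differed by 2.18 at 100 min (SE 0.48, limma adjusted p = 0.787) and by 1.66 at 400 min (SE 0.48, limma adjusted p = 0.518). Neither passed, in tests that called 0 of 9871 probe sets (0%) at each time, so a larger response in KO cells was not shown over all probe sets. Without the array labelled KO 400 min replicate 3 the 400 min value was 1.47 (limma adjusted p = 0.597). At an unadjusted p under 0.05, 361 probe sets (3.66%) stood at 100 min and 531 (5.38%) at 400 min; Ccl4 was among them at both times and Ccl3 at 100 min.

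**Figure D2:**
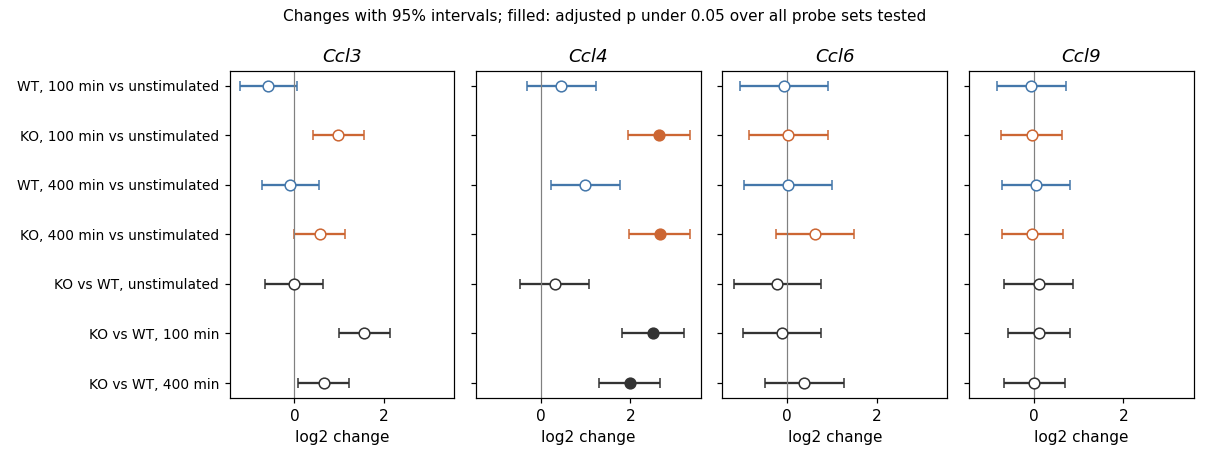
Log2 change of each gene (horizontal axis) in 7 comparisons, with 95% intervals from limma; blue is WT, orange is KO, dark is KO against WT, and filled points had an adjusted p under 0.05 over all probe sets tested. The 4 filled points are all of Ccl4, at 2.64, 2.66, 2.50 and 1.98.

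Ccl3, a ligand of Ccr1, read 422 and 470 in unstimulated WT cells. It read 293, 388 and 230 for WT replicates 1 to 3 at 100 min, and 450, 451 and 358 at 400 min. Ccl3 in KO cells read 430, 510 and 395 unstimulated, 773, 790 and 1096 at 100 min, and 538, 578 and 904 at 400 min. At 100 min all 3 WT arrays were thus below both unstimulated WT arrays, and all 3 KO arrays were above all unstimulated KO arrays. Of all tested probe sets, 11.3% had the WT pattern and 0.203% had both. By group mean the order of Ccl3 was WT 100 min (304 ± 79.7, SD, n = 3), WT 400 min (420 ± 53.2, SD, n = 3), KO unstimulated (445 ± 59.0, SD, n = 3), WT unstimulated (446 ± 34.1, SD, n = 2), KO 400 min (673 ± 201, SD, n = 3) and KO 100 min (886 ± 182, SD, n = 3). Among these neighbours only WT unstimulated and KO 400 min did not overlap.

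Ccl3 was 1.98-fold higher in KO cells at 100 min than unstimulated, 0.98 on the log2 scale (95% interval 0.41 to 1.56, limma adjusted p = 0.209), and higher in 3 of 3 replicates, by 0.85, 0.63 and 1.47. At 400 min the value was 0.57 (limma adjusted p = 0.417), and 0.33 without the array labelled KO 400 min replicate 3. In WT cells Ccl3 was at -0.59 at 100 min (95% interval -1.22 to 0.05, limma adjusted p = 0.841) and at -0.09 at 400 min (-0.73 to 0.55). The unstimulated genotypes differed in Ccl3 by -0.01 (95% interval -0.65 to 0.63).

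At 100 min Ccl3 was 2.95-fold higher in KO than in WT cells, 1.56 on the log2 scale (SE 0.27, limma adjusted p = 0.0563), above WT on 3 of 3 arrays and ranked 8 by p among the 9871 probe sets. This value stood beside the threshold. It passed with a trended and robust prior (adjusted p = 0.0151), with replicate 3 as a batch term (0.0427) and without the array labelled KO 400 min replicate 3 (0.0357). In the fit of only the groups compared it did not (0.429), nor with replicates 1 and 2 alone (1.21, adjusted p = 0.0839). The KO over WT ratio was 2.64, 2.04 and 4.77 for arrays of the same number. At 400 min the Ccl3 difference was 0.65 (limma adjusted p = 0.496), and 0.42 (adjusted p = 0.703) without the array labelled KO 400 min replicate 3.

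Markers of other cells also differed between unstimulated and stimulated KO cells. The summed intensity of the 5 dendritic cell and osteoclast markers with a probe set, 4 of which passed the filter, was 1106 to 1304 in unstimulated KO cells, 1276 to 1488 at 100 min and 1519 to 1836 at 400 min. The sum of the 6 mast cell and basophil markers with a probe set, 3 of which passed, was 965 to 1165, 772 to 1406 and 1439 to 1545 in the same order. No marker of either list was at 0 on any array, though Zbtb46 lay at or under the floor of 22.01, the 10th percentile of all values, on 6 arrays and Fcer1a on 7. The 400 min sums of both lists lay above those of unstimulated KO cells, and the 100 min sums overlapped them. The summed 11 macrophage markers were at 97628 to 104313 in KO cells at 400 min against 105752 to 124127 unstimulated. The sum of the 6 fibroblast and stroma markers with a probe set, 5 of which passed the filter, was 1521 to 1703 at 100 min against 1744 to 2236 unstimulated. Marker sums not given here overlapped those of unstimulated KO cells. Of single probe sets tested, 8.56% had every KO array above and 9.11% below the unstimulated ones at 400 min. At 100 min the shares were 5.69% and 5.68%. Some marker sums also separated KO from WT cells, before IL-6 as well as after it, and the sums not named below overlapped. Of single probe sets tested, 11.8% had every unstimulated KO array above the WT ones and 11.7% had every one below. These shares were 4.19% and 4.99% at 100 min, and 7.21% and 7.57% at 400 min. Unstimulated, the B cell sum, led by Ighm, was 1367 to 4091 in KO against 5981 to 6699 in WT cells. The sum of the 11 neutrophil and myeloid precursor markers, 9 of which passed the filter, was 1208 to 1656 against 1958 to 2043. At 400 min the B cell sum was 1504 to 1799 in KO against 2186 to 4014 in WT cells, the dendritic cell and osteoclast sum 1519 to 1836 against 1056 to 1496, and the mast cell and basophil sum 1439 to 1545 against 1073 to 1312. At 100 min the dendritic cell and osteoclast sum was 1276 to 1488 in KO against 994 to 1275 in WT cells, and the fibroblast and stroma sum 1521 to 1703 against 1818 to 1949. Their part in the Ccl4 and Ccl3 values was not tested.

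Ccl6, a Ccr1 ligand of rodents, read 212 and 241 in unstimulated WT cells. It read 209, 255 and 183 for WT replicates 1 to 3 at 100 min, and 266, 156 and 286 at 400 min. Ccl6 in KO cells read 164, 175 and 254 unstimulated, 132, 210 and 276 at 100 min, and 239, 190 and 580 at 400 min. The 16 arrays other than the one labelled KO 400 min replicate 3 lay between 132 and 286, and the groups overlapped in every comparison. These values are near the median deposited intensity of an array (164.25 to 216.95). Whether the Ccl6 signal stood above background is unknown, since no background values were used. The order of the means was KO unstimulated (198 ± 49.2, SD, n = 3), KO 100 min (206 ± 72.2, SD, n = 3), WT 100 min (216 ± 36.9, SD, n = 3), WT unstimulated (226 ± 20.7, SD, n = 2), WT 400 min (236 ± 69.8, SD, n = 3) and KO 400 min (336 ± 212, SD, n = 3), with no neighbours separated beyond their spread. The change of Ccl6 farthest from 0 was in KO cells at 400 min, at 0.62 on the log2 scale (95% interval -0.25 to 1.49, limma adjusted p = 0.63), and it was 0.14 without the array labelled KO 400 min replicate 3. Against WT cells at 400 min it was 0.38 (95% interval -0.49 to 1.26), and -0.1 without that array.

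Ccl9, also called MIP-1gamma and likewise a Ccr1 ligand, was bright on all arrays and read 23666 and 25380 in unstimulated WT cells. It read 23184, 23184 and 24386 for WT replicates 1 to 3 at 100 min, and 22161, 25380 and 29421 at 400 min. Values can recur because quantile normalization gives every array the same set of values. Ccl9 in KO cells read 24386, 20516 and 36603 unstimulated, 24106, 21204 and 32381 at 100 min, and 20992, 18556 and 43773 at 400 min. In order, the means were 23584 ± 694 at WT 100 min (SD, n = 3), 24523 ± 1212 at WT unstimulated (SD, n = 2), 25654 ± 3637 at WT 400 min (SD, n = 3), 25897 ± 5800 at KO 100 min (SD, n = 3), 27168 ± 8397 at KO unstimulated (SD, n = 3) and 27773 ± 13909 at KO 400 min (SD, n = 3), and no neighbours were separated. With all 17 arrays, the log2 differences of Ccl9 between groups lay between -0.06 and 0.11. For KO cells at 400 min against unstimulated, the 95% interval was -0.72 to 0.65, so a change within those bounds was not excluded by these arrays. Without the array labelled KO 400 min replicate 3 Ccl9 was at -0.42 against unstimulated KO cells (limma adjusted p = 0.631), at -0.37 against KO cells at 100 min and at -0.37 against WT cells at 400 min (limma adjusted p = 0.764), the last from 0.01 with it.

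Within groups, Ccl9 and Ccl6 were mostly highest on the replicate 3 array. Ccl9 was highest on replicate 3 in all 5 groups that have one, by 0.07 and 0.31 on the log2 scale over the mean of replicates 1 and 2 in WT cells at 100 and 400 min, and by 0.71, 0.52 and 1.15 in KO cells unstimulated, at 100 min and at 400 min. Ccl6 was highest there in 4 of the 5 groups, by 0.49 to 1.44, and lowest in WT cells at 100 min, by -0.34. Ccl3 and Ccl4 did not share that pattern. Ccl3 was lowest on replicate 3 in both stimulated WT groups and in unstimulated KO cells, and highest in both stimulated KO groups. Ccl4 was lowest there in both stimulated WT groups, by -0.74 and -1.03, and in KO cells at 100 min, by -0.12. The summed B cell markers, led by Ighm, and the summed neutrophil markers were each lowest on the replicate 3 array in all 5 groups. Their part in these values was not tested.

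Ccr1, a receptor of Ccl3, Ccl6 and Ccl9, rose in KO cells from 337 ± 9.4 (SD, n = 3) unstimulated to 1990 ± 840 (SD, n = 3) at 100 min, a log2 change of 2.46 (SE 0.48, limma adjusted p = 0.0357). At 400 min it was at 2500 ± 609 (SD, n = 3), a log2 change of 2.86 (SE 0.48, limma adjusted p = 0.00808), and 3.08 without the array labelled KO 400 min replicate 3 (adjusted p = 0.0141). In WT cells Ccr1 was at 168, 696 and 871 on average in the order unstimulated, 100 and 400 min, with log2 changes of 1.9 (limma adjusted p = 0.556) and 2.17 (adjusted p = 0.344). KO against WT, Ccr1 was at 1.56 at 100 min (limma adjusted p = 0.625) and 1.69 at 400 min (adjusted p = 0.22), or 1.91 without that array (adjusted p = 0.203). Of 15 receptors and scavengers of C-C chemokines, 13 had a probe set with a single symbol and 11 were tested. Ccr1 was the 1 called higher at each time in KO cells and none was called lower, with list medians of -0.19 and 0.23 beside -0.04 for all probe sets. Of all tested probe sets, 0.537% were called higher at 100 min and 1.2% at 400 min.

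Of 16 other C-C chemokines 10 had a probe set and 9 were tested. In KO cells 3 rose at 100 min, the monocyte attractants Ccl7 (log2 change 6.24), Ccl12 (4.76) and Ccl2 (4.74), and 4 rose at 400 min, Ccl7 (7.04), Ccl12 (5.17), Ccl2 (4.67) and Ccl8 (4.41). None fell. Of all tested probe sets, 0.537% were called higher at 100 min and 1.2% at 400 min. The list medians were 0.68 and 1.47, beside -0.04 for all probe sets. Unstimulated KO arrays ran from 9.13 to 116 for Ccl7 and from 16.9 to 48.1 for Ccl12, reaching under the floor of 22.01. WT 400 min arrays of Ccl7 ran from 7.24 to 262. The sizes of change of Ccl7 and Ccl12 thus depend in part on the floor. Against WT cells Ccl7 (6.48), Ccl2 (4.6) and Ccl12 (3.97) were called higher at 400 min, as were 0.314% of all tested probe sets. None of the 9 was called at 100 min by limma, where 0.0304% of all were called higher. At that time 3 had an unadjusted p under 0.05, beside 4.89% of all tested probe sets. Without the array labelled KO 400 min replicate 3, 5 of the 9 were called higher in KO cells at 400 min and 4 against WT cells. The share of all probe sets called in that fit is not given here, so nothing is read from these counts. Ccl7 (7.8), Ccl2 (5.34), Ccl12 (5.28) and Ccl8 (4.07) were then called against unstimulated cells, and Ccl7 (7.24), Ccl2 (5.27) and Ccl12 (4.09) against WT cells. The gene added in both was Ccl17, a ligand of Ccr4, at 2.46 and 2.75 against 1.47 and 1.76 with that array, and the list medians became 2.46 and 2.75. Ccl17 was dim, with group means of 25.6 to 49.1 outside KO 400 min, near the floor of 22.01. Its KO 400 min arrays ran from 11.4 to 220. Ccl5, the chromosomal neighbour of Ccl9, was at 0.68 and 0.53 in KO cells at 100 and 400 min (limma adjusted p = 1 and 0.822), and at 0 at 400 min without that array.

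**Figure D3:**
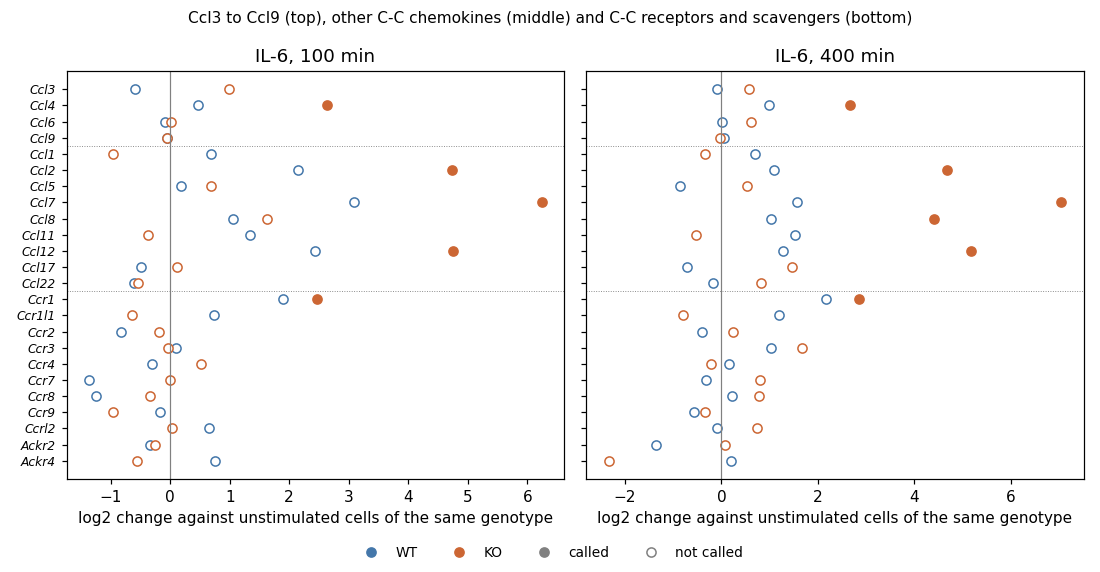
Log2 change from the unstimulated cells of the same genotype (horizontal axis) at 100 and 400 min for the macrophage inflammatory proteins, the other C-C chemokines and the receptors and scavengers; blue is WT, orange is KO, and filled points had a limma adjusted p under 0.05. Ccl4 at 2.64 and 2.66 in KO cells lies between Ccl7 at 6.24 and 7.04 and Ccl9 at -0.05 and -0.03. The sizes for Ccl7 depend in part on the floor of 22.01, since its unstimulated KO arrays ran from 9.13 to 116.

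Among 18 genes of NF-kappaB and of mRNA stability, 16 had a probe set and 15 were tested. Zfp36, which encodes tristetraprolin, a protein that promotes decay of AU-rich mRNAs, rose in KO cells by 2.03 at 100 min (limma adjusted p = 0.0131) and 1.94 at 400 min (adjusted p = 0.0101) on the log2 scale, or 1.81 at 400 min without the array labelled KO 400 min replicate 3 (adjusted p = 0.0345). Zfp36 was the 1 gene of the list called at each time, and none was called lower, where 0.537% and 1.2% of all tested probe sets were called higher. The medians of the list were 0 and 0.25, beside -0.04 for all probe sets.

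The likeness of other genes to each of the 4 was measured as Pearson's r of log2 values over the 17 arrays, which share groups and replicate 3, so r is a description. The 3 tested genes most like Ccl4 were Mcoln2 (0.93), Irf1 (0.92) and Myc (0.91), and over the 12 arrays of replicates 1 and 2 their r was 0.93, 0.94 and 0.92. Myc was dim, with means of 5.26 in unstimulated WT and 17.1 in unstimulated KO cells. Both are under the floor of 22.01, so part of its r rests on values raised to the floor. The 3 genes most like Ccl3 were Socs1 (0.84), Ccl4 (0.83) and Jun (0.82), with 0.74, 0.76 and 0.87 over the 12 arrays. Those of Ccl9 were Kif20a (0.89), Nipsnap2 (0.86) and Nudt1 (0.84), which went to 0.69, 0.51 and 0.71. For Ccl6 they were Phyh (0.8), Entpd7 (0.77) and Lfng (0.77), with 0.42, 0.74 and 0.34 over the 12 arrays. Between the 4 genes themselves, Ccl6 and Ccl9 had r of 0.67 over 17 arrays and -0.17 over 12, whereas Ccl3 and Ccl4 had 0.83 and 0.76.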

How the data were processed

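Total RNA of 17 macrophage samples was measured on 1-colour oligonucleotide arrays of 12488 probe sets. The deposited values are linear intensity values scaled per array by the authors: the mean of each array, trimmed by 2% at each end, is 499 to 500. No label or file header names the software, background correction or summary method. The arrays' number limits the precision.

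Intensities were quantile-normalized between arrays, raised to a floor of 22.01 (the 10th percentile) and put on the log2 scale. Control probe sets (66) and those not above the 40th percentile on at least 2 arrays were left out, leaving 9871. Groups were taken from sample titles. One limma (3.58.1, R 4.3.3) model with 6 group means gave 11 comparisons, with Benjamini-Hochberg adjustment over all 9871 probe sets and calls at an adjusted p under 0.05. The fit was tested on simulated data. Printed intensities are normalized and have no floor. Gene names came from the platform annotation, where 10855 probe sets have 1 symbol, and a gene of a list enters with its brightest probe set. Named are the 4 genes, Socs3, the called genes of 3 lists (at most 4 a comparison), Ccr1, the 3 genes most like each of the 4, and Ccl5, added as a chromosomal neighbour, and Ccl17, both after their values were seen. The 4 genes and the lists were chosen with earlier results of these data known. Promoter windows came from RefSeq (GRCm38.p6). Figures were drawn with matplotlib 3.10.9.

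Replicate numbers were not used as pairs, since only arrays of number 3 deviated together throughout. Alternatives were the deposited scaling, a pseudocount of 16, no filter, only the groups compared, replicate terms, replicates 1 and 2 alone, a trended robust prior and leaving out each array.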

Additional observations from a re-analysis of the deposited data

Results flagged for a closer look

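Ccl3 at 100 min lay on opposite sides of its unstimulated values in the 2 genotypes: every KO array was above the unstimulated KO arrays and every WT array was below the unstimulated WT arrays, as for 0.203% of all tested probe sets. Neither change passed in limma (KO 0.98, adjusted p = 0.209; WT -0.59, adjusted p = 0.841). The difference between the responses was 1.57 on the log2 scale (SE 0.4, 95% interval 0.71 to 2.43), with an unadjusted p of 0.00156 and an adjusted p of 0.787 in limma over all 9871 probe sets, so it did not pass. The WT side rests on 2 unstimulated arrays.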

How the results depend on the processing

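Ccl4 kept its direction in all 4 called comparisons under every alternative, and its call in KO cells at 400 min was kept in all of them. The KO call at 100 min was lost with only the groups compared (2.64, adjusted p = 0.0687). In KO against WT cells the Ccl4 calls were lost with only the groups compared (2.5, adjusted p = 0.264, and 1.98, adjusted p = 0.24) and without some single arrays named above, where the difference ranged from 2.25 to 2.73 at 100 min and from 1.63 to 2.24 at 400 min when any 1 array was left out. Ccl3 in KO against WT cells at 100 min passed with replicate 3 as a batch term (1.56) and with a trended robust prior (1.56), and ranged from 1.38 to 1.75 without 1 array. With a lone array left in a group, its spread is assumed to be that of the other groups. Of 352 member results under the other alternatives 27 changed sign, all of changes reported at a size of at most 0.11 on the log2 scale, and of 748 without 1 array 48 did, of changes reported at a size of at most 0.38. The cause was not tested. The depth of signal over background is unknown, since no background values were used.

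Signs changed as follows. With the deposited scaling Ccl9 was at 0.08 in WT at 100 min and 0.04 in KO at 400 min, Ccl6 at -0.03 in WT at 400 min, Ccl4 at -0.01 in KO from 100 to 400 min and Ccl9 at -0.13 in the difference of responses at 100 min. With the replicate block, and with replicate 3 as a batch term, Ccl9 was at -0.13 and Ccl6 at -0.18 in WT at 400 min, and Ccl9 at -0.08 in unstimulated KO against WT and 0.09 in the difference at 400 min. With replicates 1 and 2 alone Ccl6 was at 0.03 in WT at 100 min, and Ccl3 at 0.02, Ccl9 at -0.05 and Ccl6 at -0.15 in WT at 400 min. There Ccl6 was at -0.18 in WT from 100 to 400 min, Ccl9 at 0.02 and Ccl6 at -0.03 in KO at 100 min, and Ccl9 at -0.2 and Ccl4 at -0.23 in KO from 100 to 400 min. KO against WT, Ccl3 was at 0.07 and Ccl9 at -0.13 unstimulated, Ccl9 at -0.04 at 100 min and -0.27 at 400 min, and Ccl6 at -0.06 in the difference at 100 min.

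Without 1 array, the ranges that crossed 0 were, for WT, Ccl6 -0.21 to 0.03 at 100 min, Ccl3 -0.17 to 0.02, Ccl9 -0.05 to 0.16 and Ccl6 -0.15 to 0.29 at 400 min, and Ccl6 -0.07 to 0.37 between the times. For KO they were Ccl9 -0.23 to 0.19 and Ccl6 -0.22 to 0.31 at 100 min, Ccl9 -0.42 to 0.2 at 400 min, and Ccl9 -0.37 to 0.25 and Ccl4 -0.19 to 0.13 between the times. For KO against WT they were Ccl3 -0.11 to 0.07 and Ccl9 -0.13 to 0.29 unstimulated, Ccl9 -0.06 to 0.24 and Ccl6 -0.36 to 0.17 at 100 min, and Ccl9 -0.37 to 0.25 and Ccl6 -0.1 to 0.71 at 400 min. For the difference of responses they were Ccl9 -0.17 to 0.24 and Ccl6 -0.14 to 0.39 at 100 min and Ccl9 -0.47 to 0.15 at 400 min.

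Counts of called probe sets moved more. In WT at 100 min the count was 1, and 2 with the deposited scaling, the pseudocount or no filter, 0 with only the groups compared, 5 with the replicate block or the robust prior, 3 with the batch term, 17 with replicates 1 and 2 and 0 to 20 without 1 array. In WT at 400 min it was 1, and 2 without the filter, 0 with only the groups compared, 3 with the block or batch term, 14 with replicates 1 and 2, 8 with the robust prior and 0 to 16 without 1 array. Between the WT times it was 0, and in the order pseudocount, block, batch term, replicates 1 and 2 and robust prior 4, 5, 7, 16 and 9, and 0 to 18 without 1 array. In KO at 100 min it was 57, and in the order only the groups compared, block, batch term, replicates 1 and 2 and robust prior 0, 86, 94, 117 and 86, and 24 to 79 without 1 array. In the same order it was 180 in KO at 400 min, and 52, 305, 332, 276 and 290, and 73 to 229. Between the KO times it was 0, and with the block, batch term, replicates 1 and 2 and robust prior 5, 9, 14 and 23, and 0 to 2 without 1 array. For unstimulated KO against WT it was 0, and 1 with the deposited scaling or no filter, 9 with replicates 1 and 2 and 0 to 17 without 1 array. At 100 min it was 4, and 2 with the deposited scaling and, in the order above from only the groups compared, 0, 10, 16, 30 and 14, and 1 to 12. At 400 min it was 36, and in that order 2, 57, 85, 122 and 73, and 11 to 55. For the difference of responses it was 0 at both times, 0 to 3 without 1 array at 100 min, and at 400 min 3 without the filter and 5, 4, 5, 11 and 8 in that order, and 0 to 8 without 1 array.

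The replicate block kept all 4 Ccl4 calls and changed no call of the other 3 genes. Arrays of the same number had correlations of their deviations of -0.02 to 0.11 (number 1), -0.01 to 0.09 (number 2) and 0.1 to 0.24 (number 3), against -0.16 to 0.12 between numbers, and 11 of 17 arrays correlated best with their own number. Of the 3 genes most like each, Spearman's rho kept 2 for Ccl3, 0 for Ccl4 and Ccl6 and 1 for Ccl9, and replicates 1 and 2 kept 1 for Ccl3 and 0 for Ccl4, Ccl6 and Ccl9.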
